A study of Homo sapiens with 7 samples.

Results

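The regions described here are stretches of intergenic chromatin that became more accessible when PHF19 was silenced in Kasumi-1 cells and that lie far from any gene start. They were chosen by rule from the authors' lists of changed regions: the mean in knockdown cells was above the mean in control cells, the deposited annotation was distal intergenic, the nearest transcription start site (TSS) was more than 100 kb away, and chromosome 7 was left out. The rule picked 917 of 8815 listed regions, which is 12.1% of the 7573 regions gained off chromosome 7 and 45.4% of the 2020 intergenic ones among them. Since the choice used the measured direction, the folds, means and false discovery rates (FDR) below are a description and carry no test.

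The assay was ATAC-seq, which uses a transposase to cut and tag open DNA. The PHF19 knockdown had 3 libraries, from Kasumi-1 cells carrying a lentiviral shRNA against PHF19, and the scrambled control had 4, from Kasumi-1 cells given a scrambled shRNA (listed as WT in 1 label). Kasumi-1 is a human acute myeloid leukaemia cell line with the RUNX1-RUNX1T1 fusion. Both groups were put under puromycin at 2 µg/ml, 48 hours after the shRNA and for 24 hours or longer, and every library was made from 10000 cells. All libraries come from this 1 line. The labels do not say whether those of a group were separate cultures, so the p-values behind the lists reflect a spread that may be technical only. Every mean, fold and FDR of a single region given here is copied from the authors' deposited table, which holds 1 mean per group, so no SD or n can be printed beside a region, and library depth is unknown. Coordinates are read as build hg19. The lists hold no RNA level, so they give no check of the PHF19 knockdown itself.

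PHF19 is a Polycomb-like accessory subunit of Polycomb repressive complex 2 (PRC2), which methylates histone H3 and keeps developmental genes silent. Gene deserts are long intergenic stretches without protein-coding genes. Many flank genes of neurons and of embryonic development, and some hold enhancers that act over long distances. A region in a desert is assigned to the gene with the nearest TSS, which does not show that it acts on that gene.

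The name gene desert was set against the gene bodies in the lists, which lack every gene without a listed region. The share of regions remote from every gene may therefore be smaller than given here. Of the 917 regions, 826 (90.1%) lay more than 100 kb from the nearer end of their assigned transcript, and 801 (87.4%) lay more than 100 kb from every transcript named anywhere in the lists. The median gap to the nearest such transcript was 227 kb (interquartile range 127 to 419 kb), and 10 regions lay within 10 kb of one. The 801 had a median log2 fold of 1.06, with median means of 16.0 reads in knockdown cells and 4.87 in control cells. The other 116 had a median log2 fold of 1.03, with 17.3 reads in knockdown cells and 5.75 in control cells. Regions remote from listed gene bodies and those nearer to one thus had medians of similar size, and the difference was not tested.

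Desert regions rested on few reads and were low in control cells. In bulk libraries, a wider opening per cell and more cells with the region open cannot be told apart. Their authors' mean normalised read count had a median of 16.4 in knockdown cells (interquartile range 11.5 to 23.6) and 4.93 in control cells (2.98 to 8.55). The deposited log2 fold, knockdown over control, had a median of 1.05 (interquartile range 0.95 to 1.20) and ran from 0.60 to 2.09. The plain difference of the deposited log2 group means was larger, with a median of 1.67. The deposited log2 fold was 1 or more in 573 regions (62.5%), and an FDR of 0.01 or less was reached by 378 (41.2%). Over all 52675 regions that the authors tested, 16.4% were listed as increased, 7.09% had a log2 fold of 1 or more among the increased, and 7.5% were increased with an FDR of 0.01 or less. These shares come from the same contrast as the rule and nothing is read from them. The mean over all libraries was under 10 reads in 467 regions (50.9%). The control mean lay at 1 read, the lowest value the lists hold, in 21 regions (2.29%), whose knockdown means ran from 5.64 to 15.1 reads.

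**Figure D1:**
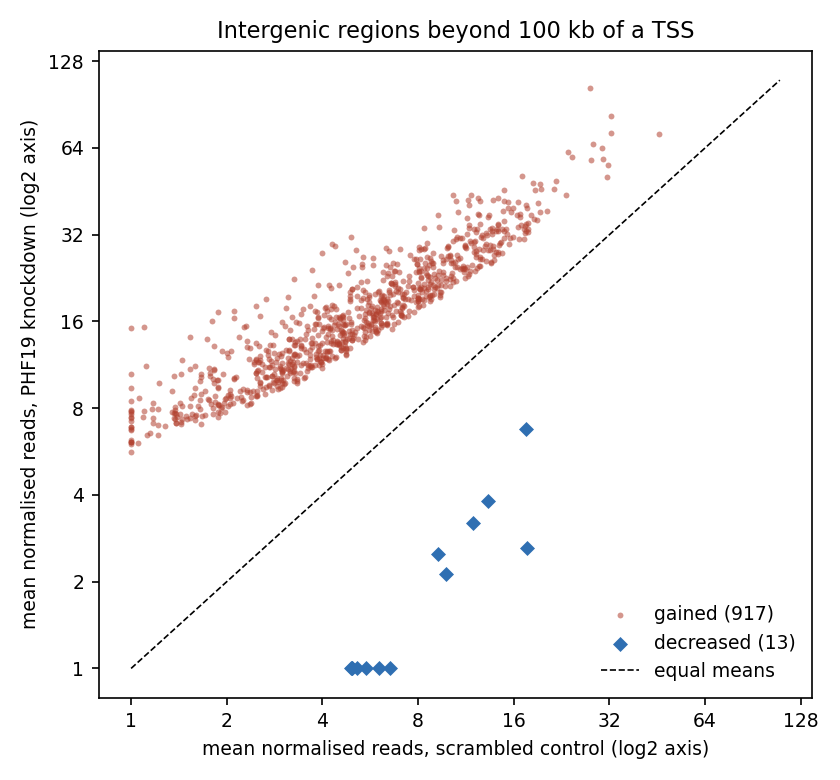
Each point is an intergenic region more than 100 kb from a TSS, off chromosome 7. The vertical axis is the authors' mean normalised read count in the PHF19 knockdown and the horizontal axis that in the scrambled control, both on log2 axes; red points are the 917 gained regions, blue diamonds the 13 decreased ones and the dashed line marks equal means. The gained regions fill a band above the line that begins at a control mean of 1 read, and 7 of the decreased regions lie at a knockdown mean of 1 read.

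Among kinds of gained regions, all off chromosome 7, those in deserts had a median fold and a median control mean closest to those of regions deep inside long introns, and a median knockdown mean between those of that kind and of nearby intergenic regions. The 295 gained intronic regions more than 100 kb from a TSS had a median log2 fold of 1.06, with medians of 15.0 reads in knockdown cells and 4.58 in control cells. The 1103 gained intergenic regions within 100 kb had a median log2 fold of 0.999 (interquartile range 0.90 to 1.14), with 17.7 reads in knockdown cells and 5.99 in control cells. The 3850 gained promoter regions, within 3 kb of a TSS, had a median log2 fold of 0.88, with 47.9 reads in knockdown cells and 23.1 in control cells. Promoters had the smallest median fold and the most reads of these kinds. Every listed region had an FDR of 0.05 or less, and a region with few reads needs a larger fold to reach that. The listing itself thus ties fold to read level, and the order of the kinds is not read as a trait of the regions. No test separates the kinds here, because regions of the same libraries are not replicates.

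Set side by side at like read counts, the desert regions had a larger median fold than nearby intergenic regions in each bin from 4 mean reads up, but not throughout a larger one than intronic regions beyond 100 kb. These bins were drawn after the data were seen. With 4 to 8 mean reads over all libraries the median log2 fold was 1.05 in 296 desert regions, 1.03 in 310 intergenic regions within 100 kb and 1.05 in 98 promoter regions. With 8 to 16 reads it was 1.08 in 393 desert regions, 1.02 in 448 nearby intergenic regions and 0.998 in 494 promoter regions. With 16 to 32 reads it was 1.03 in 177 desert regions (interquartile range 0.86 to 1.19), 0.90 in 241 nearby intergenic regions (0.79 to 1.07) and 0.89 in 1158 promoter regions. With 32 to 64 reads it was 0.97 in 14 desert regions, 0.78 in 69 nearby intergenic regions and 0.83 in 1658 promoter regions. For intronic regions beyond 100 kb the median was 1.06 with 4 to 8 reads (107 regions), 1.06 with 8 to 16 (130), 0.996 with 16 to 32 (41) and 1.06 with 32 to 64 (5). With 2 to 4 reads the desert and nearby medians were both 1.02, over 37 and 22 regions. The spread within each bin overlaps between kinds, and the differences were not tested.

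The median deposited fold was larger at greater distance, by little beside its spread. In desert regions 100 to 200 kb from a TSS the median log2 fold was 1.04 (341 regions), at 200 to 300 kb 1.04 (171), at 300 to 500 kb 1.06 (183), at 500 to 1000 kb 1.07 (147) and beyond 1000 kb 1.14 (75 regions, interquartile range 0.97 to 1.25). For gained intergenic regions closer in, the median was 0.98 at 3 to 10 kb, 0.97 at 10 to 30 kb and 1.01 at 30 to 100 kb. The median difference of the log2 group means was larger in every successive bin, with 1.44, 1.51 and 1.56 within 100 kb and 1.60, 1.69, 1.72, 1.74 and 1.76 beyond it. Median control reads were 7.51, 6.37 and 5.26 in the bins within 100 kb and 5.51, 4.74, 4.90, 4.61 and 5.32 in those beyond. The interquartile ranges of neighbouring distance bins overlap throughout. The tie of fold to read level given above holds for these bins too, and the differences were not tested.

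**Figure D2:**
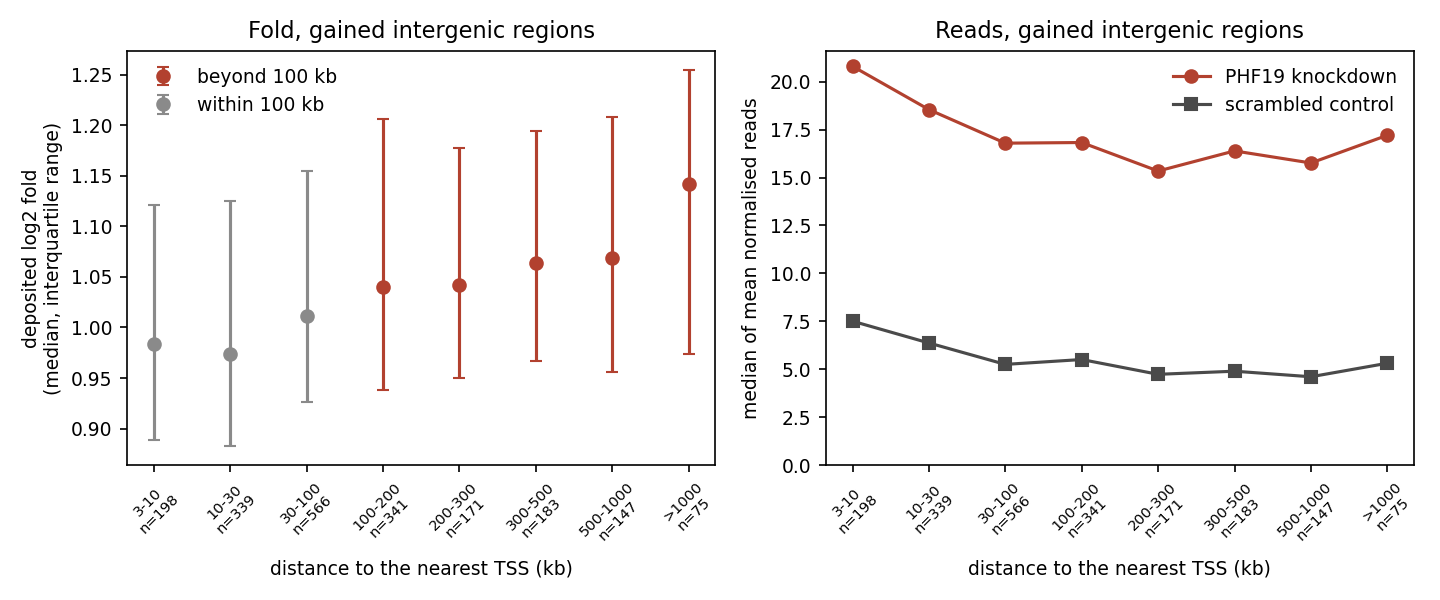
Gained intergenic regions off chromosome 7 in bins of distance to the nearest TSS, in kb, with the number of regions per bin. Left, median deposited log2 fold with bars for the interquartile range, red for bins beyond 100 kb and grey for bins within it; right, median over regions of the authors' mean normalised reads in the PHF19 knockdown (red circles) and the scrambled control (dark squares). The median fold was 0.98 in the nearest bin and 1.14 in the farthest, with overlapping bars.

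The distance rule cuts through a continuous range. Among the 5 regions just beyond 100 kb were those nearest NMUR2, the neurogenic transcription factor gene NEUROD1 and PXDNL, at 100.146, 100.434 and 100.842 kb, with log2 folds of 1.13, 1.21 and 0.95. The 5 just within it were nearest JADE1, IRAK1BP1, CD44, MAGEB16 and NXF5, at 98.178 to 99.933 kb, with log2 folds of 1.15, 0.98, 1.21, 1.31 and 1.16. CD44 encodes the hyaluronan receptor found on leukaemic stem cells.

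Distances to the nearest TSS had a median of 267 kb (interquartile range 158 to 489.8 kb). Of the 917 regions, 448 lay upstream of the assigned TSS and 469 downstream, whereas 739 of the 1103 gained intergenic regions within 100 kb (67.0%) lay upstream. A region downstream of a TSS counts as intergenic only past the end of the gene. Upstream and downstream desert regions had median log2 folds of 1.05 and 1.06.

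Nearly all desert regions had the same width. A width of 401 bp was recorded for 886 of them (96.6%) and for 285 of the gained intronic regions beyond 100 kb (96.6%). The same width was recorded for 1036 of the gained intergenic regions within 100 kb (93.9%) and 3467 of the gained promoters (90.1%). In each of these kinds 401 bp was also the smallest width, so it is not particular to deserts. The 31 wider ones ran from 560 to 996 bp and had medians of 24.5 reads in knockdown cells and 8.46 in control cells, against 15.9 and 4.81 reads in the 401 bp ones. The widest lay nearest N6AMT1, a methyltransferase gene, followed by UNC13C, which encodes a synaptic vesicle priming protein, and MB21D2 (996, 798 and 796 bp, with log2 folds of 0.86, 0.90 and 1.31).

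In the authors' deposited table the largest fold was 698 kb upstream of HS3ST1, which encodes a heparan sulfate sulfotransferase, at chr4:12128081-12128481. Its mean was 31.4 reads in knockdown cells and 4.93 in control cells, a log2 fold of 2.09 (FDR 8.45e-07). A region 309 kb upstream of FRG1, a gene near the end of the long arm of chromosome 4, had 27.6 reads in knockdown cells and 4.00 in control cells (2.07, FDR 1.94e-06). FRG1 has near-identical copies elsewhere in the genome. Reads at this region may be of uncertain origin, which was not examined. The region nearest the pseudogene MYADML, 1120.5 kb away at chr2:35073741-35074141, had 29.2 reads in knockdown cells and 4.39 in control cells (2.07). The one nearest the noncoding gene LINC00308, at chr21:23793705-23794105, had 29.7 reads in knockdown cells and 4.30 in control cells (2.05). These 4 regions thus shared knockdown means of 27.6 to 31.4 reads and control means of 4.00 to 4.93.

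The other 6 of the 10 largest folds lay at lower control means. TMCO5A had 22.5 reads in knockdown cells and 3.26 in control cells (log2 fold 1.97). LINGO2, which encodes a leucine-rich repeat membrane protein of neurons, had 24.1 reads in knockdown cells and 3.72 in control cells, 561 kb from its TSS (1.93). PPFIA2, which encodes a liprin scaffold of the presynaptic zone, had 19.2 reads in knockdown cells and 2.65 in control cells (1.90). The remaining 3 are near noncoding genes: PCGEM1, 1024 kb away (1.91), LOC646736 (1.90) and LINC02740 (1.89). The control mean was 1.88 reads at PCGEM1, 1.10 at LOC646736 and at the floor of 1 at LINC02740, so these 3 folds rest on almost no control signal.

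The smallest FDR and the most reads belonged to a single region beyond GRIK2, which encodes a kainate-type glutamate receptor subunit. It lies 1018 kb downstream of the GRIK2 TSS at chr6:102865251-102865651 and had 103 reads in knockdown cells and 27.9 in control cells (log2 fold 1.70, FDR 6.72e-10). The next highest knockdown mean was 82.7 reads, at OTOL1. Of the 10 smallest FDR, 4 belonged to the regions with the largest folds described above, at HS3ST1, MYADML, LINC00308 and FRG1. The others were nearest LINC02111 (44.0 reads in knockdown cells and 10.3 in control cells, log2 fold 1.73), HACE1, an E3 ubiquitin ligase gene (42.0 and 10.6, 1.65), LINC00971 (43.9 and 11.7, 1.59), the ubiquitin-conjugating enzyme gene UBE2E2 (37.5 and 9.27, 1.62) and OTOL1, which encodes an inner-ear collagen-like protein (82.7 and 32.4, 1.21).

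Among the regions with the most reads, those named here had folds well below the one at GRIK2. After GRIK2 and OTOL1, the next highest knockdown means were 71.9 reads at CDH18, a cadherin gene (control 32.3, log2 fold 0.995), and 71.6 at ARHGAP12, a GTPase-activating protein gene (control 45.7, 0.60, the smallest fold of all 917). GSDMC, a gasdermin gene, had 66.3 reads in knockdown cells and 28.3 in control cells (1.06), and D21S2088E had 64.1 and 30.25 (0.94). ANKRD30A had 61.7 reads in knockdown cells and 23.7 in control cells (1.16). GAP43, which encodes a growth cone protein, had 58.5 and 30.6 (0.79), and CBLB, an E3 ubiquitin ligase gene, had 58.1 and 27.9 (0.90).

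The 5 regions farthest from any TSS were all on chromosome 4. They lay 2439.7 and 2341 kb downstream of PCDH7, 2223 kb from ARAP2, 1901 kb upstream of PCDH10 and 1889 kb from C4orf33, with log2 folds of 0.90, 0.76, 0.88, 1.09 and 1.14. PCDH7 and PCDH10 encode protocadherins, which are adhesion molecules of neurons. The region at PCDH10 had 7.37 reads in knockdown cells and a control mean at the floor of 1.

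Desert regions were unevenly spread over chromosomes. Chromosomes 4 (126 regions), 3 (119), 5 (117), 2 (106) and 6 (72) held 540 of the 917 (58.9%), beside 44.1% of all gained regions off chromosome 7. As a share of each chromosome's own gained regions, the desert regions made up 21.8% on chromosome 4 (126 of 578), 17.5% on chromosome 6 (72 of 411) and 16.2% on chromosome 8 (57 of 352). They made up 5.52% on chromosome 1 (30 of 543), 2.04% on chromosome 22 (1 of 49), 2% on chromosome 17 (3 of 150) and none of the 240 gained regions on chromosome 19. The share was lower on chromosomes with more protein-coding genes per Mb (Pearson correlation −0.72 and Spearman correlation −0.74 over 22 chromosomes, given as a description, since the points share all libraries; the length of sequence beyond 100 kb of a TSS on each chromosome was not measured). Median log2 folds were close between chromosomes, from 1.03 to 1.10 on the 14 chromosomes with at least 20 desert regions.

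**Figure D3:**
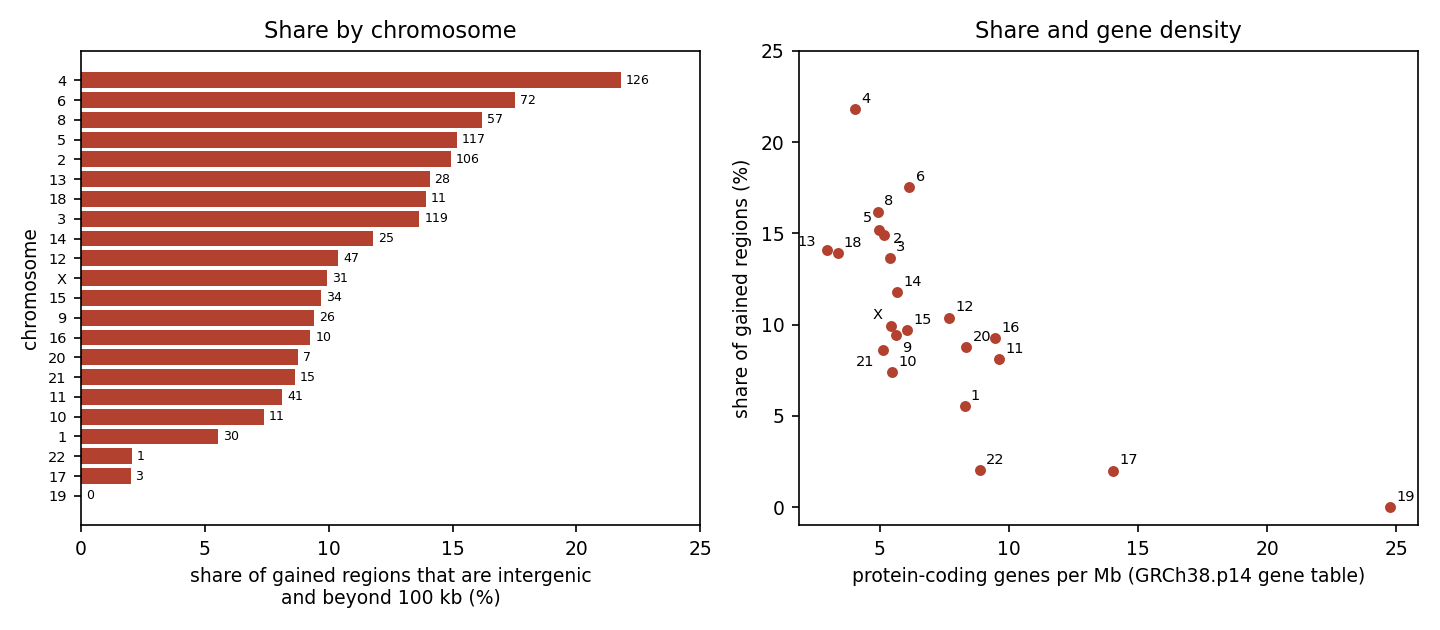
Left, the share of each chromosome's gained regions that are intergenic and more than 100 kb from a TSS, in percent, with the number of such regions beside each bar. Right, the same share against protein-coding genes per Mb up to the last gene in the GRCh38.p14 gene table, 1 point per chromosome. Chromosome 4 is highest at 21.8%, and chromosome 19, the densest in genes, is at 0%.

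The 917 regions were assigned to 602 genes. Protein-coding genes were nearest to 690 regions (75.2%), long noncoding RNA genes to 149 (16.2%), transcribed pseudogenes to 39 (4.25%) and microRNA genes to 29 (3.16%). Of the gained intergenic regions within 100 kb, 84.0% were nearest a protein-coding gene and 7.98% a long noncoding one. Gained intronic regions beyond 100 kb were close to the desert regions, with 75.3% and 16.6%. Most genes had 1 desert region (418 genes), 118 had 2, 54 had 3 or 4, and 12 had 5 or more. These 12 held 76 regions (8.29%). A gained promoter was also listed for 149 of the 602 genes (24.8%), beside 273 of 935 genes of gained intergenic regions within 100 kb (29.2%) and 54 of 223 genes of gained intronic regions beyond 100 kb (24.2%). Among protein-coding genes alone it was 141 of 459 genes of desert regions (30.7%), 264 of 781 genes of nearby intergenic regions (33.8%) and 49 of 170 genes of far intronic regions (28.8%). For 296 genes (49.2%) the desert regions were the only gained regions listed. No like share is given here for the genes of other kinds of gained regions, so nothing is read from it.

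LINC00290, a long noncoding RNA gene on the distal long arm of chromosome 4, had the most desert regions. Its 12 regions spanned 1799.5 kb (chr4:180757466-182557009), 10 downstream and 2 upstream of the TSS, and no other gained region was listed for it. Knockdown means ran from 7.09 to 36.9 reads and control means from 1.37 to 16.7, with log2 folds of 0.93 to 1.55. Of these 12 regions, 10 followed each other at gaps under 250 kb, within 830.3 kb, the longest such series among the desert regions. Knockdown means exceeded control means in each of the 12 by the rule itself.

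HACE1 had 9 regions, all downstream of its TSS, and GRIK2, also on chromosome 6, had 6. The 2.66 Mb between both genes held 14 of these 15 desert regions, with log2 folds of 0.87 to 1.70 and a median of 1.13. Knockdown means there ran from 8.66 to 103 reads and control means from 1.83 to 27.9. The listed regions in that interval numbered 15, and none of them was decreased. Of all 8815 listed regions only 200 were decreased, so nothing is read from this.

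The 4.80 Mb between PCDH7 and ARAP2, an Arf GTPase-activating protein gene, on chromosome 4 held 10 desert regions with small folds, from 0.76 to 1.26 on the log2 scale (median 0.91). Knockdown means were 9.18 to 33.7 reads and control means 2.49 to 15.4. A decreased region lay in the same interval, 894 kb from the PCDH7 TSS at chr4:31615556-31615956, with 2.62 reads in knockdown cells and 17.6 in control cells (log2 fold −1.59, FDR 0.000961). Gained and lost accessibility were thus both listed within this desert.

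The 3.77 Mb on chromosome 5 between MAT2B, which encodes a subunit of methionine adenosyltransferase, and TENM2, which encodes a teneurin adhesion protein of synapses, held 10 desert regions. Their log2 folds ran from 0.86 to 1.69 (median 1.20), with knockdown means of 9.87 to 34.1 reads and control means of 2.59 to 11.1. The listed regions in that interval numbered 13, and none of them was decreased either. The median fold was thus larger here (1.20) than between PCDH7 and ARAP2 (0.91), a difference that was not tested. These 3 intervals were chosen after their values were seen, because the genes at their ends had many regions.

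HS3ST1 had 6 regions, all upstream, of which 3 lay within 16.2 kb of each other around its largest fold. These had 26.8, 24.5 and 31.4 reads in knockdown cells and 5.38, 8.56 and 4.93 in control cells, with log2 folds of 1.74, 1.14 and 2.09. The remaining 3 had 9.51 to 11.8 reads in knockdown cells and 1.87 to 4.17 in control cells, with folds of 0.92, 1.18 and 1.06. The 3 highest knockdown means of the HS3ST1 desert regions therefore sat together. FRG1 had 6 regions with folds of 1.21 to 2.07, of which chr4:190579427-190579827 and chr4:190579834-190580234 nearly touch.

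Among the other genes with 5 regions, median folds were highest at the noncoding genes LINC00923 (1.42, range 1.20 to 1.66) and LINC00971 (1.26, range 0.90 to 1.63). SLC6A15, which encodes a neutral amino acid transporter, had folds of 0.99 to 1.32 with 8.90 to 48.2 reads in knockdown cells and 1.58 to 18.4 in control cells. ARAP2 had the lowest, 0.88 (range 0.79 to 0.99). All 5 LINC00923 regions lay above the median of the 917 desert regions (1.05), and all 5 ARAP2 regions lay below it.

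**Figure D4:**
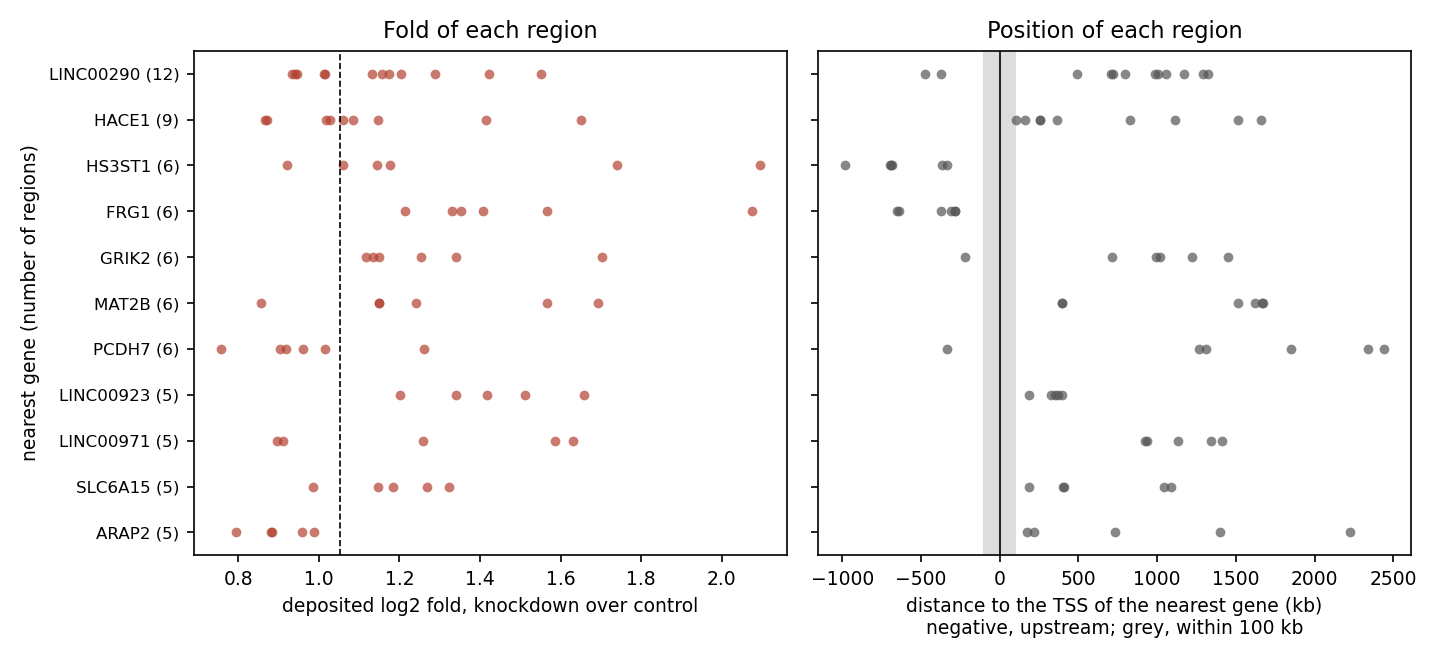
The 71 desert regions of 11 of the 12 genes that have 5 or more, 1 row per nearest gene with its number of regions. Left, deposited log2 fold of each region, with a dashed line at the median of all 917 (1.05); right, signed distance in kb to the TSS of the nearest gene, negative for upstream, with the excluded 100 kb on each side in grey. All LINC00923 regions lie right of the dashed line and all ARAP2 regions left of it.

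Most desert regions lay singly. With neighbours counted when they were at most 100 kb apart, 279 regions (30.4%) fell into 120 runs, of which 90 had 2 regions, 21 had 3 and 9 had 4, the longest. The nearest gained region of any kind lay a median of 161 kb away (interquartile range 62.9 to 340.2 kb). For gained intronic regions beyond 100 kb this median was similar, 155 kb (37.0 to 329.9 kb). It was 54.0 kb for gained intergenic regions within 100 kb and 52.7 kb for gained promoters. The 9 runs of 4 lay near FRG1, LINGO2 with LINC01242, LINC00861, LINC00923, ARRDC4, HAND2-AS1 with CEP44, CASP12, PTGER4 and HACE1.

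Folds within a run could be alike or far apart. The 4 regions near CASP12, listed as a transcribed pseudogene, had 23.0, 24.0, 10.3 and 37.5 reads in knockdown cells and 7.50, 8.17, 1.77 and 13.4 in control cells, with log2 folds of only 1.13 to 1.23. The 4 near LINC00861 on chromosome 8 had 15.5, 11.4, 12.9 and 15.4 reads in knockdown cells and 4.70, 3.47, 4.74 and 2.31 in control cells, with folds of 0.93 to 1.67. The 4 near LINGO2 and LINC01242 had 14.1, 28.5, 24.1 and 9.21 reads in knockdown cells and 4.09, 7.01, 3.72 and 1.71 in control cells, with folds of 1.13 to 1.93. The 4 near PTGER4, which encodes a prostaglandin E2 receptor, had 20.7 to 34.9 reads in knockdown cells and 8.32 to 14.2 in control cells (0.78 to 1.19). The CASP12 run thus varied more in level than in fold, while knockdown means were close in the LINC00861 run and its folds were not.

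Genes of neural adhesion, synaptic receptors and cadherins were nearest to many of the desert regions. The 3 lists together, 137 genes, accounted for 87 of the 917 (9.49%), beside 26 of 1103 gained intergenic regions within 100 kb (2.36%), 32 of 295 gained intronic regions beyond 100 kb (10.8%) and 17 of 3850 gained promoters (0.442%). The lists were chosen with earlier results of these data known, which had already shown neuronal genes beside distal regions, so they give no independent support. How much sequence beyond 100 kb each gene has beside it was not measured, and it bears on these counts. Shares were not tested. The desert regions had a smaller share than the gained intronic regions beyond 100 kb at neural adhesion genes (3.71% beside 6.78%) and at receptor and channel genes (3.27% beside 3.39%), and a larger one at cadherins (2.51% beside 0.678%).

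Of 53 neural adhesion and axon guidance genes off chromosome 7, 18 (34.0%) were nearest to at least 1 desert region, beside 459 of 19118 protein-coding genes off chromosome 7 (2.401%). The limits given above, on how the lists were chosen and on sequence not measured, hold for this contrast and for the shares of genes below. Nothing is read from the contrast. The 34 regions of these 18 genes had a median log2 fold of 1.07, and the median of all desert regions was 1.05. CSMD3, a large membrane protein gene, had 23.6 reads in knockdown cells and 4.80 in control cells (1.71), and ROBO1, the Slit receptor gene, had 21.4 and 3.88 (1.70). TENM2 had 34.1 reads in knockdown cells and 9.29 in control cells, 1725 kb upstream of its TSS (1.5004). SLIT2, which encodes a ligand of ROBO1, had 14.7 reads in knockdown cells and 2.75 in control cells (1.44). These 4 genes were named for the largest folds of the list, and its members ROBO2, SLIT1 and SLIT3 had no desert region.

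Of 55 neurotransmitter receptor and ion channel genes off chromosome 7, 15 (27.3%) had a desert region. Their 30 regions had a median log2 fold of 1.14, and GRIK2, described above, had 6 of them. KCNB2, a voltage-gated potassium channel gene, had 9.78 reads in knockdown cells and 1.23 in control cells (1.37). Of 26 cadherin and protocadherin genes, 9 (34.6%) had 23 desert regions with a median of 1.10. The largest were at PCDH10 (21.5 reads in knockdown cells and 4.50 in control cells, 1.53), CDH9 (12.4 and 2.00, 1.33), CDH8 (13.6 and 3.29, 1.28) and PCDH18 (10.3 and 1.66, 1.27).

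Developmental transcription factors, of which many are known targets of PRC2, had desert regions at 20 of 110 genes off chromosome 7 (18.2%). Their 26 regions made up 2.84% of the desert regions, beside 1.72% of gained intergenic regions within 100 kb and 0.182% of gained promoters, and had a median log2 fold of 1.004. EOMES, a T-box factor of mesoderm and lymphocytes, had 28.3 reads in knockdown cells and 5.12 in control cells, 254 kb upstream (1.83, FDR 1.67e-05). NR2F2, an orphan nuclear receptor of vessel and organ development, had 4 regions, the largest with 25.4 reads in knockdown cells and 5.33 in control cells (1.68). SALL1, a zinc finger factor of kidney development, had 23.0 and 6.61 (1.33), and SOX6 had 26.4 and 8.09 (1.27).

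Growth factor and receptor genes had desert regions at 9 of 62 members off chromosome 7 (14.5%), with a median log2 fold of 0.996 over 11 regions. The largest were at PDGFD (17.8 reads in knockdown cells and 4.06 in control cells, 1.42), the Notch ligand gene JAG1 (20.6 and 5.36, 1.39), VEGFC (28.8 and 9.89, 1.19) and PDGFC (41.7 and 16.5, 1.10). Enzymes of heparan sulfate and other glycans, with the glypicans, had 6 of 45 members (13.3%) and 13 regions with a median of 1.06. After HS3ST1 these were led by ST8SIA4, a polysialyltransferase gene (9.37 and 1.59 reads, 1.21), GALNT1 (17.9 and 5.93, 1.11) and GALNTL6 (11.1 and 3.08, 1.01). HS3ST1 held 6 of the 13.

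Genes of blood progenitors made up a smaller share of desert regions than of nearby intergenic ones. The list had desert regions at 4 of 50 members off chromosome 7 (8%), above the 2.401% of all protein-coding genes. These were 6 regions (0.654%), beside 21 of the gained intergenic regions within 100 kb (1.90%) and 20 of the gained promoters (0.519%). CXCR4, the chemokine receptor gene of stem cell homing, had 15.5 reads in knockdown cells and 3.59 in control cells, 264 kb upstream (1.29). RUNX1T1, the fusion partner of RUNX1 in this line, had 2 regions, the larger with 16.5 and 5.45 reads (1.03). SATB1, a chromatin organiser also counted among the developmental factors, had 19.6 and 8.46 (0.89), and ID2, an inhibitor of basic helix-loop-helix factors, had 27.8 and 14.3 (0.76).

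Few markers of mature blood lineages were nearest to a desert region. The counts are too small to set their shares of genes apart from the 2.401% of all protein-coding genes. Among myeloid differentiation genes, 2 of 43 (4.65%) had them, in 4 regions that make up 0.436% of the desert regions, beside 0.172% of all gained regions, among them TLR4, an endotoxin receptor gene (26.9 reads in knockdown cells and 9.43 in control cells, 1.15). Among 36 lymphoid markers, 1 (2.78%) did, the recombinase gene RAG2, with 4 regions, the largest fold 1298 kb upstream (10.0 and 1.88 reads, 1.23). None of 30 ribosomal protein genes and none of 29 keratin and epithelial genes off chromosome 7 had one, lists too short to set 0 apart from that share, while 15 gained promoters belonged to ribosomal protein genes. An assignment to RAG2 or TLR4 names the closest TSS in a long interval and does not mark a cell type.

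**Figure D5:**
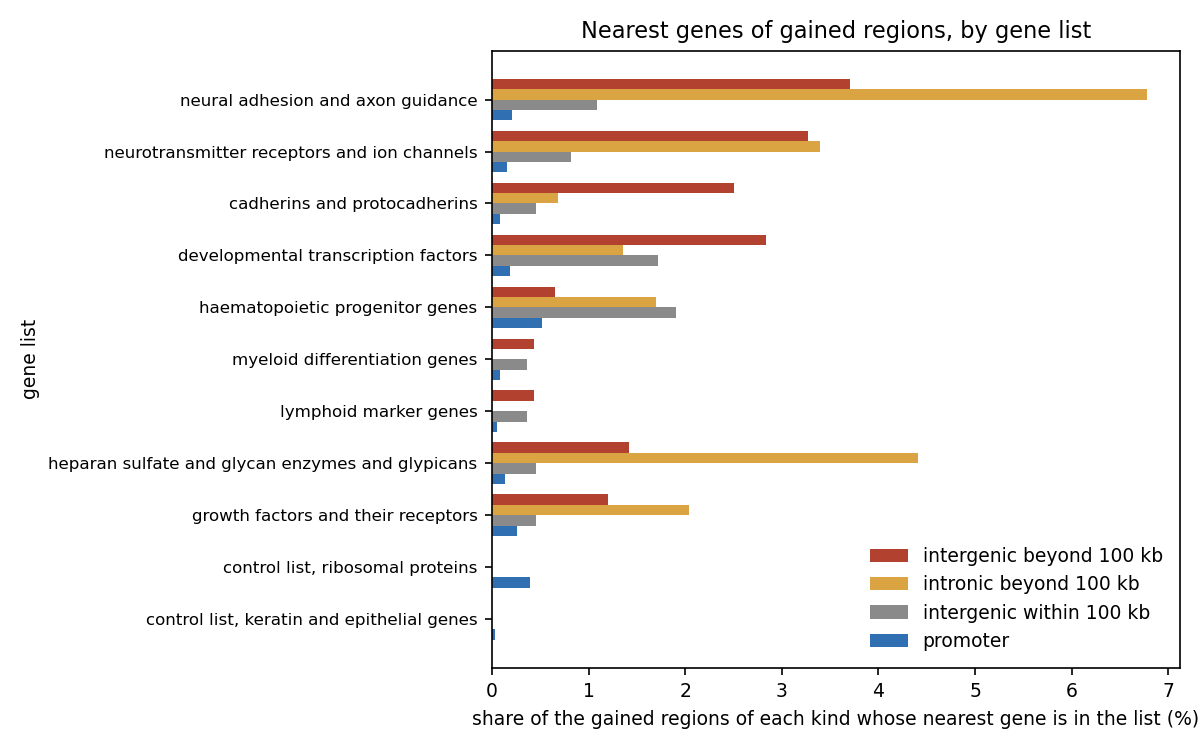
Share of gained regions, in percent, whose nearest gene is in each of 11 gene lists, for intergenic regions beyond 100 kb (red, 917 regions), intronic regions beyond 100 kb (yellow, 295), intergenic regions within 100 kb (grey, 1103) and promoters (blue, 3850), all off chromosome 7. The yellow bar is the longest for neural adhesion genes (6.78%), receptors and channels (3.39%), glycan enzymes (4.41%) and growth factors (2.03%), the red one for cadherins (2.51%), developmental factors (2.84%) and both mature blood lists (0.436% each), and the grey one for blood progenitor genes (1.90%).

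Decreased regions of the same kind were few. Of 197 decreased regions off chromosome 7, 13 (6.60%) were intergenic and more than 100 kb from a TSS, beside 917 of 7573 gained ones (12.1%). Over all regions tested, 0.38% were listed as decreased. After the one at PCDH7, the largest decreases were at FAR2, a fatty acyl-CoA reductase gene (knockdown mean at the floor of 1 and control mean 6.52 reads, log2 fold −1.22), TMC3 (2.12 and 9.78, −1.10), SMOC2 (3.81 and 13.3, −1.09), FILNC1 (3.21 and 11.9, −1.03) and the Wnt pathway gene AXIN2 (2.50 and 9.22, −0.97). EDN2, which encodes an endothelin, had 6.78 reads in knockdown cells and 17.5 in control cells (−0.96).

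The remaining 6 decreased regions, at SULF2 (−0.90), BDH1 (−0.86), SALL3 (−0.80), BRINP3 (−0.80), NCR2 (−0.79) and CST7 (−0.78), all had a knockdown mean at the floor and control means of 4.93 to 6.05 reads. In all, 7 of the 13 lay at the floor in knockdown cells. Of the 602 nearest genes of gained desert regions, 4 also had a decreased region in the lists, PCDH7, KHDRBS2, BDH1 and PDHX, named after their values were seen. Only 200 of the 52675 regions tested were listed as decreased. No like share is given for the genes of other gained regions, so nothing is read from the 4.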

How the data were processed

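Per the file headers, the authors deposited for each listed region 3 log2 mean normalised read counts (every library together, then each group by itself), the log2 fold change with its p-value and FDR, and the genomic feature, nearest gene and distance to its TSS. Per the submitters' processing notes, MACS2 2.2.6, deepTools 1.5.12, Picard 2.2.4 and Bowtie2 2.4.1 were used, with no role or setting stated. Neither the tool behind the fold changes nor the normalisation nor any transposase shift of reads is given in the sources used here.

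The group columns were identified by content: one column exceeded the other throughout the increased list and was read as the knockdown, and the overall mean weighted that column by 0.429, as 3 of 7 libraries would (98.5% of regions within 0.001). In 100% of regions the deposited fold was smaller in size than the gap between both group means. The p-values and FDR gave 52675 tested regions. Coordinates are 1-based as deposited and read as hg19, although the notes name hg38: gene starts or ends equalled those of GRCh38 in 0.228% of 8789 matched regions, and 6 of the desert regions lie beyond the last GRCh38 gene of their chromosome. The RefSeq table of GRCh38.p14 gave gene types and chromosome gene counts only (912 of 917 regions matched). No genome of the files' build was used, so no region sequence is shown.

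Read counts are 2 to the power of the deposited log2 means, with a floor of 1. A run joins regions at most 100 kb apart. Bins of reads and distance, gene body distances, gene densities and promoter overlaps were added after the data were seen. No test was made. Regions named are those with the 10 largest folds, 10 smallest FDR and 10 highest knockdown means, the 5 farthest, the 5 on each side of the distance limit, the 3 widest, the genes with 5 or more regions, the longest runs (all ties), all decreased ones and up to 4 genes per list; a few that the rule picks are not reported here. The members and the 11 lists were chosen with earlier results of these data known. Medians, shares and runs came from scipy 1.17.1, numpy 2.4.6 and pandas 2.3.3 in Python 3.11.15, and figures from matplotlib 3.10.9. The counting of runs and of tested regions was checked on simulated data. Alternatives varied the distance, FDR, fold and read limits, the window and chromosome 7.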

Additional observations from a re-analysis of the deposited data

How the results depend on the processing

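A value was taken as moved when it left the exact 95% interval of the value reported. A number of regions or genes was taken as moved when it changed by over 1.5 times. By this rule 29 of 52 alternatives over 8 results left the value in place. The median width is among these results and stayed at 401 bp throughout. That is the smallest width and 96.6% of desert regions had it, so its part of the count was all but fixed beforehand. The intervals treat regions as independent, which they are not, and many alternatives reuse the same regions, so the rule is a yardstick and no test. Every alternative kept gained regions only, so the sign of the median fold could not turn. Stricter limits leave fewer regions by construction. With a distance above 250 kb there were 492 regions at 309 genes, 6.497% of gained regions, with 18.9% on chromosome 4. Above 50 kb they made up 16.4%. With an FDR of 0.01 or less there were 378 regions at 295 genes (11.2% of gained regions), with a median log2 fold of 1.24, 20.4% in runs and 1.06% with the control at the floor. With a log2 fold of 1 or more there were 573 regions (18.3%), with a median of 1.16 and 22.3% in runs. With 10 or more mean reads there were 450 regions at 347 genes (8.07%), with 20.4% in runs and 0% at the floor. The median difference of the unshrunken group means was 1.67. Windows of 50 and 250 kb put 19.8% and 45.3% of regions in runs. No paired analysis was possible because the lists hold group means and no value per library, and for the same reason no replicate was left out. Low read counts limit single regions most, since 50.9% of them had a mean under 10 reads.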

Other observations

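A few desert regions stood alone over long distances. The region near CNTNAP3B at chr9:44118531-44118931 had no other gained region within 5687 kb, and had 11.9 reads in knockdown cells and 3.20 in control cells (log2 fold 1.11). CNTNAP3B has near-identical relatives on both sides of that centromere. Reads at this region may be of uncertain origin, which was not examined. FAM135B (2259.7 kb, log2 fold 1.32), ADGRL3, a latrophilin adhesion receptor gene (2235 kb, 1.11), ARHGAP12 (2220.1 kb, 0.60) and SORCS1, a sorting receptor gene of neurons (2166 kb, 0.98), followed.

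MicroRNA genes were nearest to 29 desert regions. The largest folds among these were at MIR4490 (16.3 reads in knockdown cells and 4.26 in control cells, log2 fold 1.26), MIR4693 (21.6 and 6.79, 1.24) and MIR572 (11.7 and 2.76, 1.19). They lay 692, 167 and 268 kb from the microRNA genes. These regions and the isolated ones were picked after their values were seen.

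Where a gene had both desert regions and a gained promoter, the folds could differ in either direction, as 4 genes picked after their values were seen show. LCORL, which encodes a PRC2 accessory protein, had 4 desert regions with a median log2 fold of 1.05 and 2 gained promoters, the one with the larger fold at 134 reads in knockdown cells and 42.8 in control cells (1.52). FRG1 had a desert median of 1.38 and a promoter fold of 0.93, GBE1, the glycogen branching enzyme gene, 0.92 and 1.41, and ARRDC4 1.03 and 1.21.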
